A study of Rattus norvegicus with 33 samples.

Results

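The plasma microRNA (miRNA) response to 4,4'-methylenedianiline (MDA), an aromatic diamine that injures the bile ducts, was described at its early times. The account rests on 4 of the 33 samples, the MDA vehicle group and the groups taken 3, 6 and 12 h after a single dose. miRNAs were kept when at least 1 of these 4 libraries held 20 reads, which left 85 of the 326 miRNAs listed. The 241 others held 0.696% to 2.17% of the reads of a library. Male Sprague-Dawley rats, obtained at 6 weeks of age, received MDA by the intragastric route at 250 mg/kg in 10 mL/kg of 0.5% carboxymethylcellulose (CMC), and the vehicle group received that solvent alone. The groups used for comparison are acetaminophen (APAP, 1500 mg/kg after a fast of 12 h) and thioacetamide (TAA, 100 mg/kg), both in the same CMC vehicle, and α-naphthylisothiocyanate (ANIT, 150 mg/kg in corn oil, 5 mL/kg), each at 3, 6 and 12 h. The vehicle groups of APAP and TAA (CMC), of ANIT (corn oil) and the shared one of carbon tetrachloride and dexamethasone (CCl4/DEX, corn oil) were used as further controls. The ANIT vehicle and the ANIT 12 h group have 2 labelled samples each but 1 column in the tables, and each column was used as 1 library. A group held 5 rats, but the tables give 1 column for each MDA group, and the sources used here do not give whether that column is 1 rat or a pool. No tissue or serum chemistry value was used here, so the bile duct injury itself rests on the label.

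miRNAs reach plasma in vesicles and protein complexes, and injured cells release those they hold in quantity. miR-122 is the main miRNA of hepatocytes. The miR-200 family (miR-200a, miR-200b and miR-429 from one cluster, miR-200c and miR-141 from another) is characteristic of epithelia, bile duct cells among them, and miR-143 and miR-145 form a cluster that is strong in smooth muscle. miR-451, miR-486 and miR-16 are abundant in red cells, and miR-150 in lymphocytes.

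The mature sequences of the miRNAs the results turn on are given first, from RefSeq (build GRCr8), where 71 of the 85 measured miRNAs matched by name. The capitals mark the seed, bases 2 to 8, which sets most of the pairing with a target mRNA. The smooth muscle pair comes first, with 2 other miRNAs that were higher in MDA than in the other models.
miR-143-3p: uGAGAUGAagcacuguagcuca
miR-145-5p: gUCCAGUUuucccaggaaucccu
miR-218a-5p: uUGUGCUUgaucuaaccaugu
miR-199a-3p: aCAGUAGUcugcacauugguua
The next set is 2 liver-enriched miRNAs and 2 that were higher beside them.
miR-122-5p: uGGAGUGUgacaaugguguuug
miR-194-5p: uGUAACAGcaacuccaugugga
miR-378a-3p: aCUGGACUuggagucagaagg
miR-30a-5p: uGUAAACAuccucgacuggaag
Then come the miRNAs that share a seed and differed in plasma in direction (miR-192-5p and miR-215) or in size (the miR-101 pair), and 5 members of the let-7 family.
miR-192-5p: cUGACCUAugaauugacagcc
miR-215: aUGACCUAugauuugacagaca
miR-101b-3p: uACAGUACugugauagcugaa
miR-101a-3p: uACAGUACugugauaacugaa
let-7g-5p: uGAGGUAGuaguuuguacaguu
let-7i-5p: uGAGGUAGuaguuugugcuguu
let-7c-5p: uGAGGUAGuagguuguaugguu
let-7a-5p: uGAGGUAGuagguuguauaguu
let-7f-5p: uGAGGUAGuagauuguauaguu
miR-192-5p and miR-215 differ at 4 positions, counting the longer end of miR-215, and the miR-101 pair at 1. let-7a-5p differs from let-7c-5p and from let-7f-5p at 1 position each. The sources used here do not give how reads were assigned to such near-identical miRNAs, and values within the let-7 family, the miR-101 pair and the miR-30 family are uncertain by any reads shared between members.

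The 4 libraries held 14176 (vehicle), 30566 (3 h), 88632 (6 h) and 88677 (12 h) miRNA reads. The vehicle is thus the shallowest, and a miRNA with 0 reads in it could still make up 0.0212% of its reads. Of the 85 measured miRNAs, 47 had 20 reads in the vehicle and 38 were kept through a treated library alone, which favours higher calls among the latter. The read minimum fell between miR-429, kept with 20 reads at 3 h, and let-7d-5p, miR-181b-5p, miR-322-3p and miR-374-5p, left out with 19 reads in their highest library. With 1 library per group there is no test of a time against its own vehicle. A miRNA was therefore called higher or lower when its ratio to vehicle was at least 2 or at most 0.5 and the exact 95% counting interval of the ratio excluded 1. Such intervals cover counting error only, and not the spread between rats or libraries.

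Early after MDA, plasma held a larger share of epithelial and liver miRNAs and of the smooth muscle miRNAs miR-143-3p and miR-145-5p than the vehicle library, and a smaller share of the red cell miRNAs, of miR-150-5p and of miR-181a-5p. At 3 h 16 of 85 miRNAs were called higher (18.8%) and 21 lower (24.7%), at 6 h 18 (21.2%) and 22 (25.9%), and at 12 h 18 (21.2%) and 20 (23.5%). The calls were higher at all 3 times for 12 miRNAs: miR-101b-3p, miR-122-5p, miR-143-3p, miR-145-5p, miR-182, miR-183-5p, miR-192-5p, miR-200a-3p, miR-200b-3p, miR-30a-3p, miR-30a-5p and miR-378a-3p. They were lower at all 3 times for 15: let-7a-5p, let-7f-5p, miR-7a-5p, miR-16-5p, miR-26b-5p, miR-92a-3p, miR-126a-3p, miR-150-5p, miR-181a-5p, miR-191a-5p, miR-215, miR-451-5p, miR-455-3p, miR-455-5p and miR-486. With total counts 7 and 21 miRNAs were called at all 3 times, and miR-143-3p, miR-145-5p, miR-182, miR-183-5p and miR-30a-5p were no longer among the higher ones. The balance of higher and lower calls turned with the scaling. With total counts it was 16 and 23 at 3 h (18.8% and 27.1%), 8 and 30 at 6 h (9.41% and 35.3%) and 11 and 31 at 12 h (12.9% and 36.5%). With 1 TMM (trimmed mean of M-values) over all libraries it was 22 and 17, 22 and 15, and 22 and 16. Relative to total counts, the TMM used here raised log2 ratios by 0.06 at 3 h, 0.60 at 6 h and 0.72 at 12 h.

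**Figure D1:**
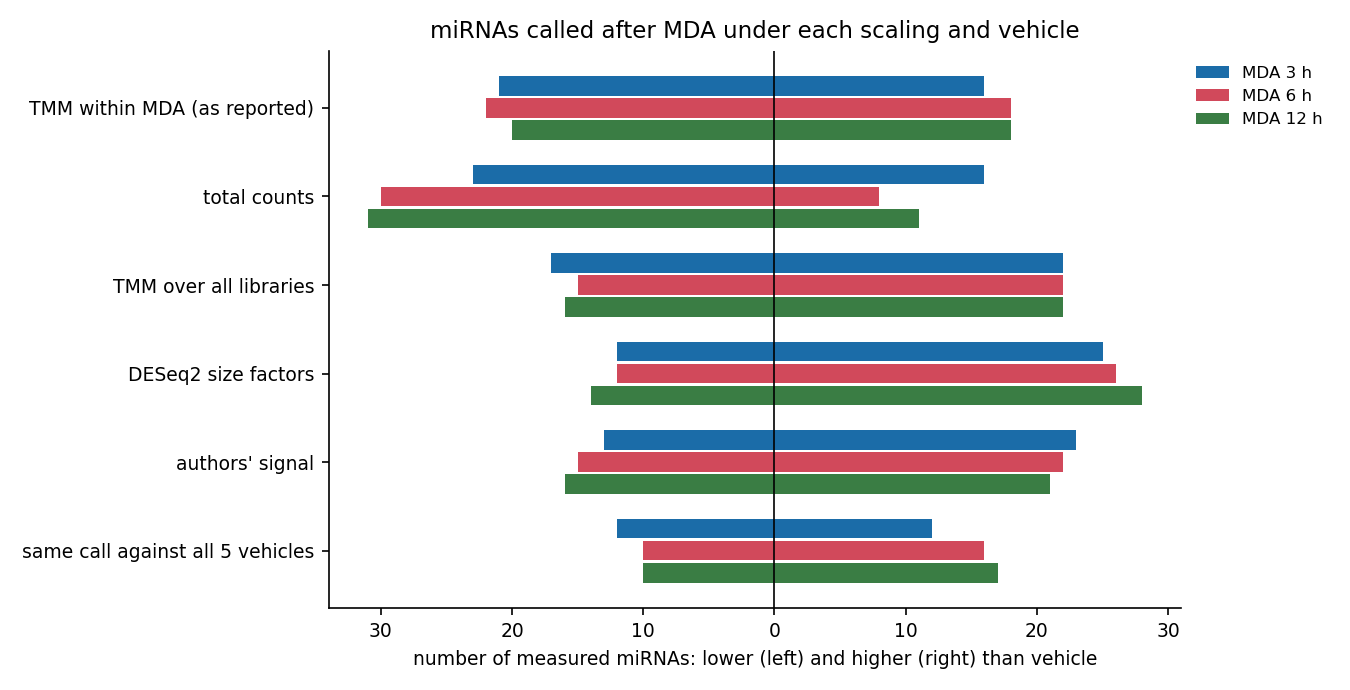
Number of the 85 measured miRNAs called lower (left) and higher (right) than vehicle at 3, 6 and 12 h, under 6 choices of scaling and vehicle (84 miRNAs for the authors' signal). Total counts give more lower than higher calls, 30 against 8 at 6 h, and DESeq2 size factors the opposite, 12 against 26.

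Because the MDA vehicle is shallow, the treated libraries were also set against each of the other 4 vehicle libraries. The same call against all 5 vehicles was made for 12 higher and 12 lower miRNAs at 3 h (14.1% each), 16 and 10 at 6 h (18.8% and 11.8%) and 17 and 10 at 12 h (20% and 11.8%). At all 3 times and against all 5 vehicles 9 miRNAs were higher, which were miR-200a-3p, miR-200b-3p, miR-182, miR-183-5p, miR-143-3p, miR-145-5p, miR-122-5p, miR-101b-3p and miR-30a-5p. The 7 that were lower in this way were miR-150-5p, miR-181a-5p, miR-191a-5p, miR-215, miR-451-5p, miR-486 and miR-7a-5p. Between the vehicles themselves the same rule called 8.24% (APAP), 21.2% (TAA), 16.5% (ANIT) and 25.9% (CCl4/DEX) of the 85 miRNAs as different from the MDA vehicle.

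miR-200a-3p, which keeps epithelial cells in their state by repressing the Zeb factors, had 3 reads in vehicle, 233 at 3 h, 312 at 6 h and 213 at 12 h. As shares of reads these were 0.0212%, 0.762%, 0.352% and 0.24%, against 0.0164% to 0.0403% in the other 4 vehicles. All 3 MDA libraries lay above every vehicle library, with the 3 h library highest. The ratios to vehicle were 37.5 (95% interval 12.7 to 183.2), 25.2 (8.53 to 123) and 18.7 (6.30 to 91.2), and against the 5 vehicles they ranged from 12.2 to 44.3. The level at 12 h was 2.01-fold lower than at 3 h (1.66 to 2.43), and in the later libraries of the same model the share was 0.024% at 24 h and 0.0346% at 48 h, within the range of the vehicles.

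miR-200b-3p, from the same cluster as miR-200a, was high in the same libraries, with 1 read in vehicle and 41, 45 and 42 reads after MDA. Its ratios were 19.8 (3.36 to 801), 10.9 (1.86 to 440) and 11 (1.88 to 446). There were 5.68, 6.93 and 5.07 miR-200a-3p reads for each miR-200b-3p read at 3, 6 and 12 h. miR-429, the third member of that cluster, had 0 reads in vehicle and 20, 15 and 18 after MDA. With 3 reads taken in place of 0, its ratio was 3.22 at 3 h, 1.21 at 6 h and 1.58 at 12 h. These values leave out the counting error of the treated library, and miR-429 was called higher at 3 h alone. The other miR-200 cluster stayed under the read minimum, with 1, 12, 9 and 4 reads of miR-200c-3p and 0, 2, 3 and 1 of miR-141-3p in vehicle and at 3, 6 and 12 h.

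miR-182 and miR-183-5p, of a further cluster active in sensory and other epithelia, were higher by less. miR-182 held 0.0988%, 0.304%, 0.141% and 0.135% of reads, and its ratio was 3.21 at 3 h (1.82 to 6.09). miR-183-5p had 5, 37, 69 and 51 reads and a ratio of 3.57 at 3 h (1.4 to 11.6). miR-203b-3p followed another course, with 1, 3, 10 and 40 reads. Only its 12 h library was called, at a ratio of 10.5 (1.78 to 425), and it was 4.34-fold higher there than at 6 h (2.13 to 9.74). miR-203a-3p, a miRNA of stratified epithelium, stayed under the minimum with 6, 5, 13 and 17 reads. Of the 6 measured members of the epithelial list, among 16 listed, 5 were called higher at 3 h, 4 at 6 h and 5 at 12 h, and none lower. With total counts the higher calls were 5, 2 and 3. Each of the 6 had under 20 reads in vehicle and so was kept only through a treated library, which favours higher values, and the counts and median of the list are a description. With 3 reads of miR-429 taken in place of 0, the median log2 ratio of the list was 1.70, 1.34 and 2.06. Over the 38 miRNAs kept in the same way it was 0.38, 0.66 and 0.63.

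**Figure D2:**
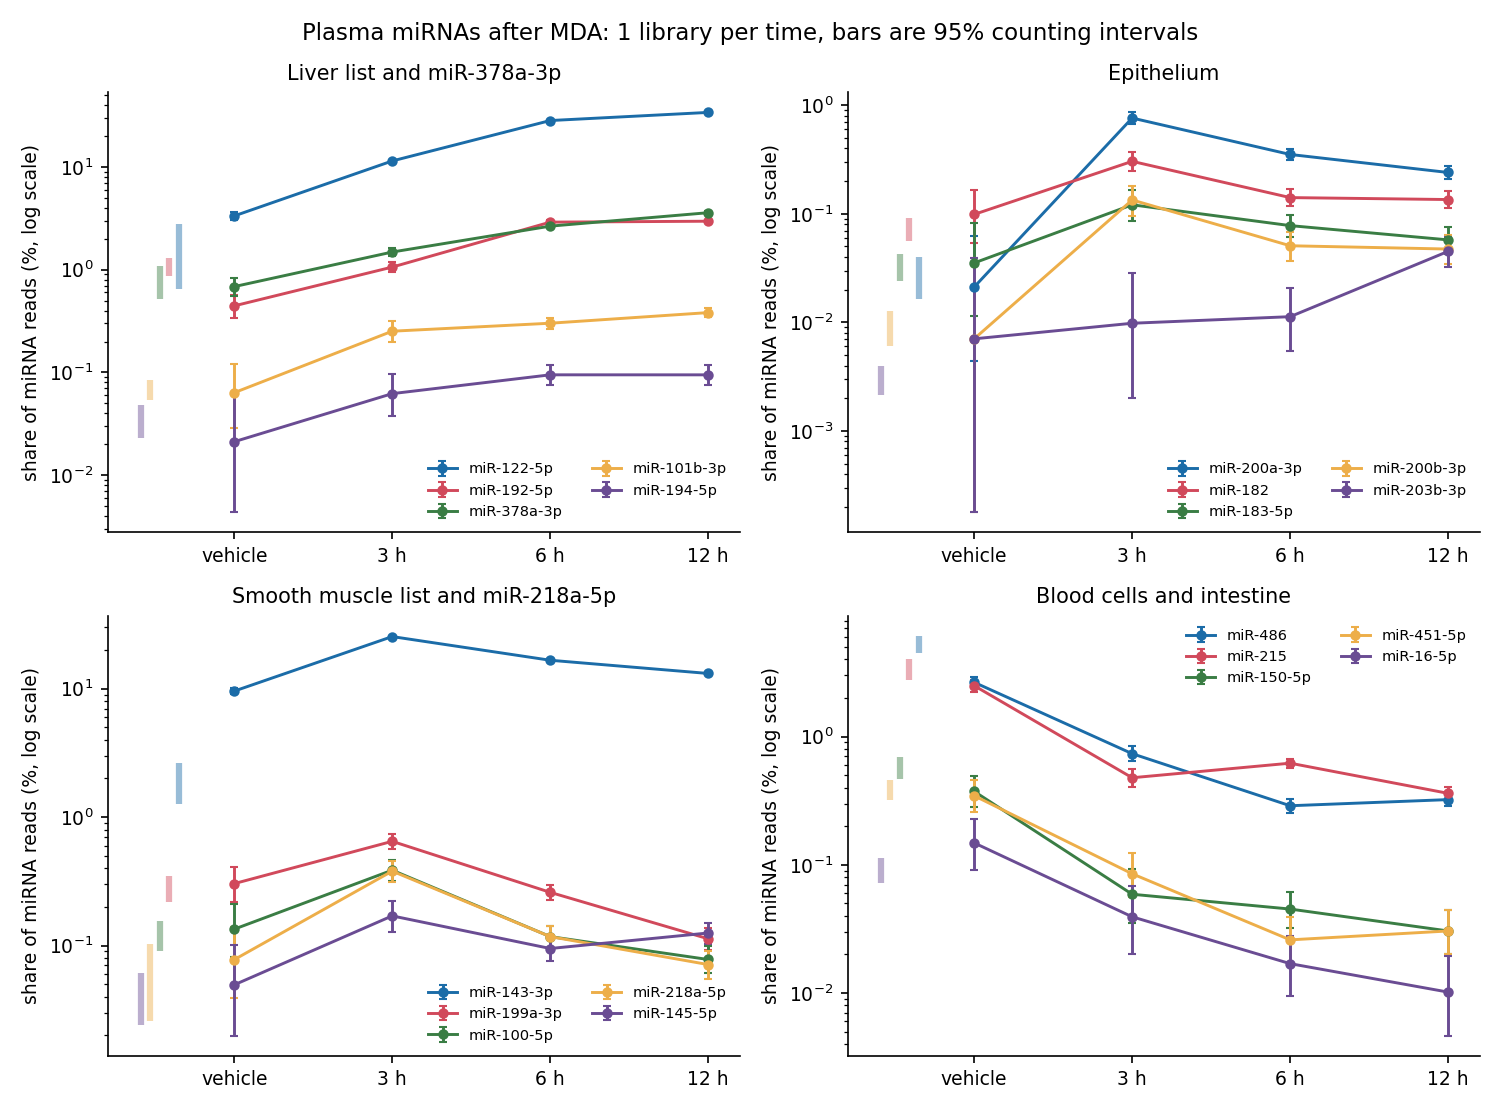
Share of miRNA reads (%, log scale) in the MDA vehicle, 3, 6 and 12 h libraries for 20 miRNAs in 4 groups, with 95% counting intervals; the pale bars at the left span the other 4 vehicle libraries. The epithelial miR-200a-3p peaked at 3 h at 0.762%, miR-122-5p climbed to 33.9% at 12 h, and miR-143-3p already stood at 9.58% in the MDA vehicle, above the bar of the other vehicles.

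miR-143-3p, a regulator of smooth muscle phenotype, made up 9.58% of reads in vehicle, 25.5% at 3 h, 16.7% at 6 h and 13.1% at 12 h. At 3 h it was the most abundant miRNA of the library, ahead of miR-148a-3p at 24.3%. Its ratios to the MDA vehicle were 2.77 (2.61 to 2.93), 2.63 (2.49 to 2.78) and 2.26 (2.13 to 2.39), and with total counts 2.66, 1.74 and 1.37. The MDA vehicle was itself the highest of the vehicles, since the other 4 held 1.25% to 2.65%, and it exceeded them 3.44- to 4.91-fold. Against the other vehicles the treated libraries were therefore up to 16.2-fold higher. At 24 and 48 h the share was 3.03% and 2.41%, below that of the model's own vehicle.

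miR-145-5p, its cluster partner, had 7 reads in vehicle and 52, 84 and 111 after MDA, shares of 0.0494%, 0.17%, 0.0948% and 0.125%. Its ratios were 3.59 (1.62 to 9.36), 2.90 (1.35 to 7.44) and 4.17 (1.96 to 10.6). In contrast to miR-143-3p its level in the MDA vehicle lay within the range of the other vehicles, 0.0238% to 0.0615%, and the MDA vehicle was called different from none of them. The MDA vehicle held 1358 reads of miR-143-3p beside those 7 of miR-145-5p. There were 149.7 miR-143-3p reads for each miR-145-5p read at 3 h, 175.8 at 6 h and 105 at 12 h, against 33.1 to 70.8 in the other vehicles.

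A further 3 miRNAs were high at 3 h and then receded. miR-218a-5p, which is encoded within the Slit genes and was in none of the lists, had 11, 116, 104 and 63 reads, with a ratio of 5.09 at 3 h (2.74 to 10.5), 2.29 at 6 h (1.23 to 4.73) and 1.51 at 12 h (0.787 to 3.17). miR-199a-3p, known from fibroblasts and stellate cells, had a share of 0.303% in vehicle and 0.648%, 0.26% and 0.113% after MDA. Its ratio was 2.22 at 3 h (1.59 to 3.17), and it was 3.64-fold lower at 12 h than at 3 h (2.85 to 4.67). miR-100-5p, of the same list as miR-199a-3p, was 3.00-fold higher at 3 h (1.84 to 5.16) and 3.14-fold lower at 12 h than at 3 h (2.32 to 4.29). miR-29a-3p, which represses collagens, was not called at any time, with ratios of 1.14, 1.43 and 1.71. Of 8 measured members of the smooth muscle, stellate and fibroblast list, among 16 listed, 4 were called higher at 3 h and 2 at 6 and 12 h, and none lower. With total counts these were 4, 0 and 1 higher, and 0, 1 and 2 lower. The list's median log2 ratio was 1.14, 0.43 and 0.36, and 1.08, −0.17 and −0.36 with total counts.

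miR-122-5p climbed through all times, from 3.34% of reads in vehicle to 11.4% at 3 h, 28.3% at 6 h and 33.9% at 12 h. The other vehicles held 0.647% to 2.80%. From 3 to 6 h it was 3.60-fold higher (3.47 to 3.73), and from 6 h on it was the most abundant miRNA. Its ratio to vehicle at 12 h was 16.7 (15.3 to 18.4), and 10.2 with total counts. The liver and intestine miRNA miR-192-5p had 0.444%, 1.06%, 2.90% and 2.96% of reads. Here the MDA vehicle was the lowest of the 5 and was called lower than each of the other 4, at 0.319 to 0.423 of their level. The ratio of 2.48 at 3 h (1.89 to 3.31) accordingly did not hold against all vehicles, where it ran from 0.937 to 2.93, while the ratios at 6 h (9.88) and 12 h (11) stayed between 3.95 and 14.3. miR-194-5p, which shares a transcript with miR-192, had 3, 19, 84 and 84 reads and was called at 6 h, at a ratio of 6.78 (2.24 to 33.5), and at 12 h, at 7.36 (2.43 to 36.4).

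miR-101b-3p had 9, 77, 267 and 339 reads and ratios of 4.13 (2.07 to 9.38), 7.18 (3.73 to 15.9) and 9.90 (5.15 to 21.8). miR-378a-3p, made from a gene of mitochondrial metabolism, had 0.684%, 1.49%, 2.65% and 3.59% of reads and reached a ratio of 8.62 at 12 h (7.04 to 10.7). It was the 1 muscle-listed miRNA that was higher. The muscle miRNA miR-1-3p was not called at 3 h, and at 6 and 12 h it was 5.00- and 5.47-fold lower (intervals 3.18 to 7.90 and 3.41 to 8.88), though against the other vehicles its ratios reached 0.935. miR-22-3p was late, with a ratio of 0.738 at 3 h (0.386 to 1.45), 2.78 at 6 h (1.69 to 4.86) and 5.21 at 12 h (3.21 to 9.05). miR-30a-5p was level in time, with ratios of 2.35 (2.02 to 2.74), 2.42 (2.10 to 2.80) and 2.42 (2.10 to 2.81). All 4 measured members of the liver list, among 11 listed, were called higher at 6 and 12 h and 3 at 3 h, with median log2 ratios of 1.63, 3.03 and 3.34.

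The miRNAs of red cells were lower at all times. miR-486 fell from 2.65% of reads in vehicle to 0.736%, 0.289% and 0.323%, against 4.46% to 6.15% in the other vehicles. Its level was lower by factors of 3.46 at 3 h (2.93 to 4.10), 6.07 at 6 h (5.16 to 7.14) and 5.00 at 12 h (4.28 to 5.86). miR-451-5p had 49, 26, 23 and 27 reads, and was 8.80-fold lower at 6 h (5.26 to 15.1). miR-16-5p had 21, 12, 15 and 9 reads and was 8.88-fold lower at 12 h (3.90 to 22). All 3 measured red cell miRNAs, among 6 listed, were called lower at each time, and the summed share of the 6 went from 3.18% in vehicle to 0.864%, 0.333% and 0.363%. The red cell share thus moved with the other results, and its part in them was not tested. From shares of plasma reads, less of these miRNAs and more of the others cannot be told apart.

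miR-150-5p, abundant in mature lymphocytes, had shares of 0.374%, 0.0589%, 0.0451% and 0.0304% and was 6.10-, 5.47- and 7.47-fold lower at 3, 6 and 12 h (intervals 3.51 to 11.1, 3.56 to 8.47 and 4.62 to 12.4). miR-181a-5p, a miRNA of developing lymphocytes, was 4.05-, 3.17- and 4.20-fold lower. The 3 other measured miRNAs of the leukocyte list, miR-146a-5p, miR-146b-5p and miR-342-3p, were called at no time, so that 2 of 5 were lower at each time. The myeloid miR-223-3p was under the minimum, with 11, 5, 11 and 10 reads. Of the platelet and endothelial list miR-191a-5p was 3.21-, 3.57- and 3.62-fold lower and the endothelial miR-126a-3p 2.20-, 2.18- and 2.09-fold, the latter not against all vehicles. The most abundant miRNA of the vehicle, miR-148a-3p, held 34.5%, 24.3%, 25.2% and 25.7% of reads, and its ratio stayed between 0.734 and 1.22. miR-140-3p, a cartilage miRNA that is abundant in plasma, went from 7.62% to 2.92% at 3 h, 2.86% at 6 h and 2.03% at 12 h.

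miR-192-5p and miR-215, which carry the same seed UGACCUA, went opposite ways. miR-215, a miRNA of the intestine, had 2.50% of reads in vehicle and 0.478%, 0.621% and 0.361% after MDA, lower than vehicle by factors of 5.02 at 3 h (4.13 to 6.13), 2.66 at 6 h (2.32 to 3.04) and 4.21 at 12 h (3.61 to 4.91). The other vehicles held 2.75% to 4.00%, so all 3 MDA libraries lay below every vehicle library. There were 0.178 miR-192-5p reads for each miR-215 read in the MDA vehicle, 0.217 to 0.379 in the other vehicles, and 2.22, 4.68 and 8.21 at 3, 6 and 12 h.

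In the let-7 family, whose members are found in most differentiated cells, let-7g-5p and let-7c-5p stayed near the vehicle while let-7a-5p and let-7f-5p were lower. let-7a-5p had 0.451%, 0.137%, 0.0654% and 0.0383% of reads which at 3 and 12 h was 3.16- and 7.16-fold lower (intervals 2.11 to 4.77 and 4.65 to 11.2). let-7g-5p had 4.61%, 4.85%, 3.55% and 2.40%, with ratios of 1.10, 1.17 and 0.857, and let-7c-5p ratios of 1.33, 1.12 and 0.895. There were 10.2 let-7g-5p reads for each let-7a-5p read in the MDA vehicle, 6.04 to 9.46 in the other vehicles and 35.3, 54.3 and 62.6 after MDA. let-7f-5p was 2.40-, 3.29- and 3.39-fold lower than the MDA vehicle, but the TAA vehicle was itself low in it. The share was 0.771% there, 2.71% in the MDA vehicle and 1.09%, 0.544% and 0.486% after MDA. By share let-7f-5p was thus below the TAA vehicle at 6 and 12 h, while with TMM over all libraries it was above it at all 3 times (log2 0.72, 0.34 and 0.36). miR-101a-3p, which differs from miR-101b-3p by 1 base, had 5, 26, 54 and 33 reads and was called at 6 h alone, at a ratio of 2.61 (1.05 to 8.37).

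let-7i-5p had 4.75%, 2.52%, 1.30% and 1.06% of reads and was called at 6 h, 2.42-fold lower (2.19 to 2.66), and at 12 h, 2.72-fold lower (2.46 to 3.00). miR-26a-5p, a miRNA of many differentiated tissues, had 4.44%, 2.17%, 0.859% and 0.675% and was 4.00-fold lower at 12 h (3.57 to 4.48), while the TAA vehicle held 0.956%. Against that vehicle it was lower by share at 6 and 12 h but higher with TMM over all libraries (log2 0.69 and 0.52). Both arms of miR-455, which is processed from an intron of a collagen gene, were lower than the MDA vehicle, the 5p arm with 50, 31, 57 and 37 reads and the 3p arm with 21, 6, 16 and 20. Neither arm was called lower against all 5 vehicles at all 3 times. For the 3p arm the MDA vehicle was itself 1.24- to 2.46-fold above the other vehicles. miR-7a-5p, of neuroendocrine cells, had 16, 11, 24 and 17 reads and was 3.01-, 2.75- and 3.58-fold lower. miR-92a-3p, of the miR-17/92 cluster, was 2.78-, 2.07- and 2.01-fold lower.

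**Figure D3:**
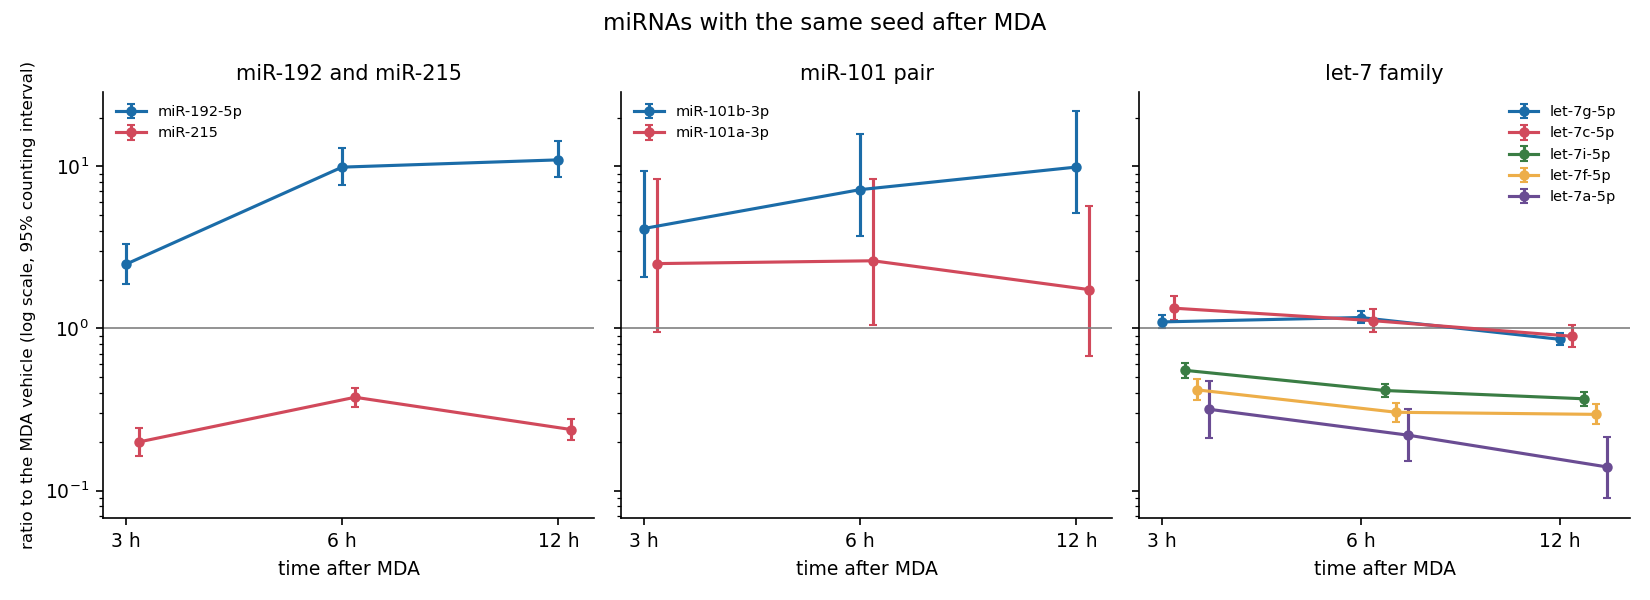
Ratio to the MDA vehicle (log scale, 95% counting interval) at 3, 6 and 12 h for miRNAs with the same seed. miR-192-5p reached 11 while miR-215 stayed at or under 0.376, and within let-7 the ratios at 12 h ran from 0.14 (let-7a-5p) to 0.895 (let-7c-5p).

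Most of the change in time fell between 3 and 6 h. There 9 of the 85 miRNAs were called higher and 5 lower by the same rule, against 2 and 2 between 6 and 12 h, and with total counts 4 and 16, and 2 and 3. Of the 85, 32 had their highest level in vehicle, 19 at 3 h, 11 at 6 h and 23 at 12 h, and by share of reads these were 41, 30, 4 and 10. The sums over all listed members, those under the read minimum included, ran apart in time, as the epithelial list peaked at 3 h with 1.48% of reads (0.219% in vehicle, 0.576% at 12 h), the smooth muscle, stellate and fibroblast list at 3 h with 28.2% (11.5% and 14.5%), and the liver list at 12 h with 37.4% (3.87% in vehicle, 12.8% at 3 h). miR-143-3p made up most of the smooth muscle sum. The 15 other listed members summed to 1.91% in vehicle, 2.7% at 3 h, 1.45% at 6 h and 1.34% at 12 h, so that without it the sum was lower than vehicle at 6 and 12 h.

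To set the early MDA libraries against a spread between libraries, the 3 times were compared as a group with the 5 vehicle libraries, with edgeR's quasi-likelihood test and Benjamini-Hochberg adjustment over 113 miRNAs. The times stand in for replicates here, and nothing states that the libraries come from separate animals, so p-values measure only the spread between these samples. At an adjusted p under 0.05, 32 miRNAs were higher (28.3%) and 37 lower (32.7%). With total counts the split was 18 (15.9%) and 52 (46%), and the median log2 change over the 113 miRNAs then stood at −0.84 in place of 0.06. miR-200a-3p led, with a log2 change of 5.02 (SE 0.37, adjusted p = 3.07e-07), and miR-200b-3p changed by 3.85 (SE 0.41) and miR-429 by 3.69 (SE 0.61). miR-429 had at most 5 reads in a vehicle library, so it met the minimum of 10 reads in 3 libraries through the MDA libraries alone. Among the vehicles miR-200b-3p reached 10 reads only in CCl4/DEX (17 reads). Such a filter favours higher values, and the changes of miR-429 and miR-200b-3p are a description. miR-122-5p changed by 4.45 (SE 0.55, adjusted p = 3.08e-05), miR-101b-3p by 3.07 (SE 0.31) and miR-378a-3p by 2.65 (SE 0.36). The change was 2.42 for miR-145-5p (SE 0.34, adjusted p = 6.21e-05) and 3.2 for miR-143-3p (SE 0.61, adjusted p = 0.000709), the latter 4.17 when the MDA vehicle was left out. miR-30a-3p (1.88), miR-30a-5p (1.89), miR-194-5p (2.36), miR-182 (2.18), miR-183-5p (2.21), miR-192-5p (2.29) and miR-3559-5p (2.44) completed the 15 strongest that were higher. Among the vehicles miR-3559-5p too reached 10 reads only in CCl4/DEX (18 reads). The filter thus favours its higher value, and its change is likewise a description.

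Among the miRNAs that were lower, the change was −2.79 for miR-150-5p (SE 0.32, adjusted p = 1.81e-05), −2.59 for miR-486 (SE 0.38), −2.37 for miR-451-5p (SE 0.37) and −1.85 for miR-215 (SE 0.30, adjusted p = 0.000163). The brain-listed miR-128-3p (−2.71) and miR-322-3p (−2.18) were under the read minimum in the MDA libraries, with at most 15 reads after MDA. The others of the 15 strongest were the myeloid miR-223-3p (−1.88), let-7a-5p (−2.07), miR-191a-5p (−1.51), miR-149-5p (−2.42), let-7d-5p (−1.94), miR-92a-3p (−1.35), miR-25-3p (−1.36), miR-7a-5p (−1.66) and miR-93-5p (−2.71). Of these, miR-223-3p, miR-149-5p, let-7d-5p and miR-93-5p were also under the read minimum in the MDA libraries. miR-149-5p met the minimum of 10 reads in 3 libraries through the vehicles alone. That favours lower values, and the change of miR-149-5p is a description. By list, all 4 tested liver miRNAs and 5 of 6 epithelial ones were higher, with miR-203a-3p lower (−1.31, adjusted p = 0.0245). The epithelial count includes miR-200b-3p and miR-429, whose higher values the read filter favours. Of the smooth muscle, stellate and fibroblast list 8 of 9 were higher with TMM and none lower, with a median log2 change of 1.27. The 8 include miR-199a-5p, which met the minimum of 10 reads in 3 libraries only with MDA 3 h (16) and 12 h (10). That favours higher values, and the change of miR-199a-5p is a description. miR-199a-3p (0.99, adjusted p = 0.0382) and miR-100-5p (1.36, adjusted p = 0.0121) of that list lost the call without the 3 h library, at adjusted p = 0.448 and 0.151. With total counts they and miR-29a-3p lost it, with changes of 0.23 (adjusted p = 0.668), 0.59 (0.275) and 0.37 (0.303). For miR-99a-5p (0.63), miR-125b-2-3p (1.27) and miR-199a-5p (1.51), also called higher with TMM, the total-count result is not given here. Total counts moved the median change of all miRNAs tested by −0.90, more than the change of miR-99a-5p. miR-199a-3p lost the call as well with CMC vehicles only (0.0981), without the APAP vehicle (0.0923) and without the ANIT vehicle (0.128). All 3 red cell miRNAs and 5 of 8 leukocyte miRNAs were lower, as were 5 of 6 of the miR-17/92 group, which is active in dividing cells. Of the red cell miRNAs, miR-16-5p lost the call without the 12 h library, at adjusted p = 0.0774. Of 9 let-7 miRNAs 5 were lower and let-7c-5p alone was higher (1.00, adjusted p = 0.0271). let-7c-5p lost the call with total counts (0.739), with CMC vehicles only (0.215), without the 3 h library (0.105) and without the APAP (0.0994), ANIT (0.0801) or CCl4/DEX vehicle (0.0692). Of the 5 lower, let-7f-5p (−1.41) and let-7i-5p (−1.06) lost it with CMC vehicles only (adjusted p = 0.0981 and 0.169), without the 6 h (0.114 and 0.157) or 12 h library (0.14 and 0.234), and without the ANIT (0.0553 and 0.0655) or CCl4/DEX vehicle (0.0675 and 0.0846). Against the MDA vehicle alone, in a fit that took its spread from 16 libraries, no miRNA passed the adjustment, with 29 at an unadjusted p under 0.05. In that fit the value was 5.44 for miR-200a-3p (SE 1.84, adjusted p = 0.151) and 2.07 for miR-143-3p (SE 0.85, adjusted p = 0.184).

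Compared with APAP, TAA and ANIT at the same 3 times, the MDA libraries stood apart in miR-143-3p and miR-145-5p of the smooth muscle group. Of 123 miRNAs tested with time in the model, 22 were higher in MDA (17.9%) and 17 lower (13.8%), and with total counts 21 (17.1%) and 4 (3.25%). miR-143-3p, at 13.1% to 25.5% in MDA, was at 0.171% to 3.91% in the 9 libraries of the other models, and the groups did not overlap. Its log2 difference was 4.05 (SE 0.33, adjusted p = 9.04e-07). miR-145-5p, at 0.0948% to 0.17% in MDA, was at 0.00278% to 0.0403% elsewhere, a difference of 3.13 (SE 0.30, adjusted p = 2.15e-06). miR-218a-5p differed by 2.83 (SE 0.27, adjusted p = 2.15e-06), with 0.071% to 0.38% in MDA and 0.00159% to 0.0738% elsewhere, so that its 12 h value fell just within the other models. miR-199a-3p differed by 1.98 (SE 0.25). Its share was 0.113% to 0.648% in MDA, 0.00848% to 0.25% elsewhere and 0.217% to 0.346% in the 5 vehicles. For miR-100-5p these shares were 0.0778% to 0.386%, 0.00954% to 0.15% and 0.0907% to 0.155%. For both, the MDA range spanned the vehicles, and the median of the other models (0.0795% and 0.0454%) lay below every vehicle. In all, 8 of 11 tested members of the smooth muscle, stellate and fibroblast list, which does not hold miR-218a-5p, were higher, among them miR-29a-3p (1.17), miR-152-3p (1.19), miR-125b-2-3p (1.29) and miR-100-5p (1.57), and none was lower. For miR-100-5p the adjusted p of 0.00533 became 0.0581 without the 3 h library, 0.111 without the 6 h library and 0.0718 with total counts. The median log2 difference of the 11 was 1.29, beside 0.03 over all miRNAs tested. The 11 include miR-199a-5p, which met the minimum of 10 reads in 3 libraries only with the MDA 3 and 12 h libraries. Such a filter favours higher values. Against the 5 vehicles miR-152-3p did not pass the edgeR test (adjusted p = 0.102).

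miR-200a-3p was higher in MDA by 2.83 (SE 0.51, adjusted p = 0.000898). Its 12 h level in MDA, 0.24% of reads, was close to that of ANIT at 12 h, 0.231%, while ANIT held 0.0369% at 3 h and 0.0362% at 6 h. ANIT at 24 h, outside this comparison and with 2 labelled samples in 1 column, held 1490 miR-200a-3p reads among 154915. That is a larger share than in any MDA library, as was that of miR-200b-3p (224 reads). miR-143-3p had 8764 reads there, a smaller share than in MDA at 3, 6 and 12 h. miR-200b-3p differed by 1.89 (SE 0.42, adjusted p = 0.00456, but 0.0747 without the 3 h and 0.06 without the 6 h library). Of the 7 epithelial miRNAs tested these 2 were higher. miR-30a-5p (1.78, SE 0.26), miR-532-5p (1.56, SE 0.24), miR-378a-3p (1.20, SE 0.27) and miR-184 (2.77, SE 0.65), a miRNA of lens and corneal epithelium, were higher as well. miR-184 had 2, 4, 45 and 19 reads in the MDA vehicle and at 3, 6 and 12 h. Outside MDA only ANIT at 6 h, with 19 reads, reached the read minimum of the edgeR fits. miR-184 was thus tested only because the MDA 6 and 12 h libraries reached it too. That favours higher values, and the change of miR-184 is a description. miR-122-5p did not pass the test (−0.45, adjusted p = 0.384), nor did miR-192-5p (−0.85, adjusted p = 0.116). miR-322-3p (−2.06), miR-128-3p (−2.69), miR-25-3p (−1.33), miR-181a-5p (−1.47), miR-486 (−1.54), miR-455-5p (−1.23), the islet miRNA miR-375-3p (−1.33), miR-215 (−1.60), let-7a-5p (−1.12) and miR-150-5p (−1.35) were lower in MDA. Without the 3 h library miR-215 and let-7a-5p lost the call at an adjusted p of 0.0581 each and miR-150-5p at 0.0728, and without the 6 h library miR-150-5p lost it at 0.0727, miR-486 at 0.051 and miR-378a-3p at 0.0505. With total counts miR-181a-5p (adjusted p = 0.0522), miR-375-3p (0.0546), miR-455-5p (0.0674), miR-215 (0.069), let-7a-5p (0.114) and miR-150-5p (0.135) did not pass. Nor did miR-378a-3p (adjusted p = 0.106) and let-7a-5p (0.0882) without time in the model.

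**Figure D4:**
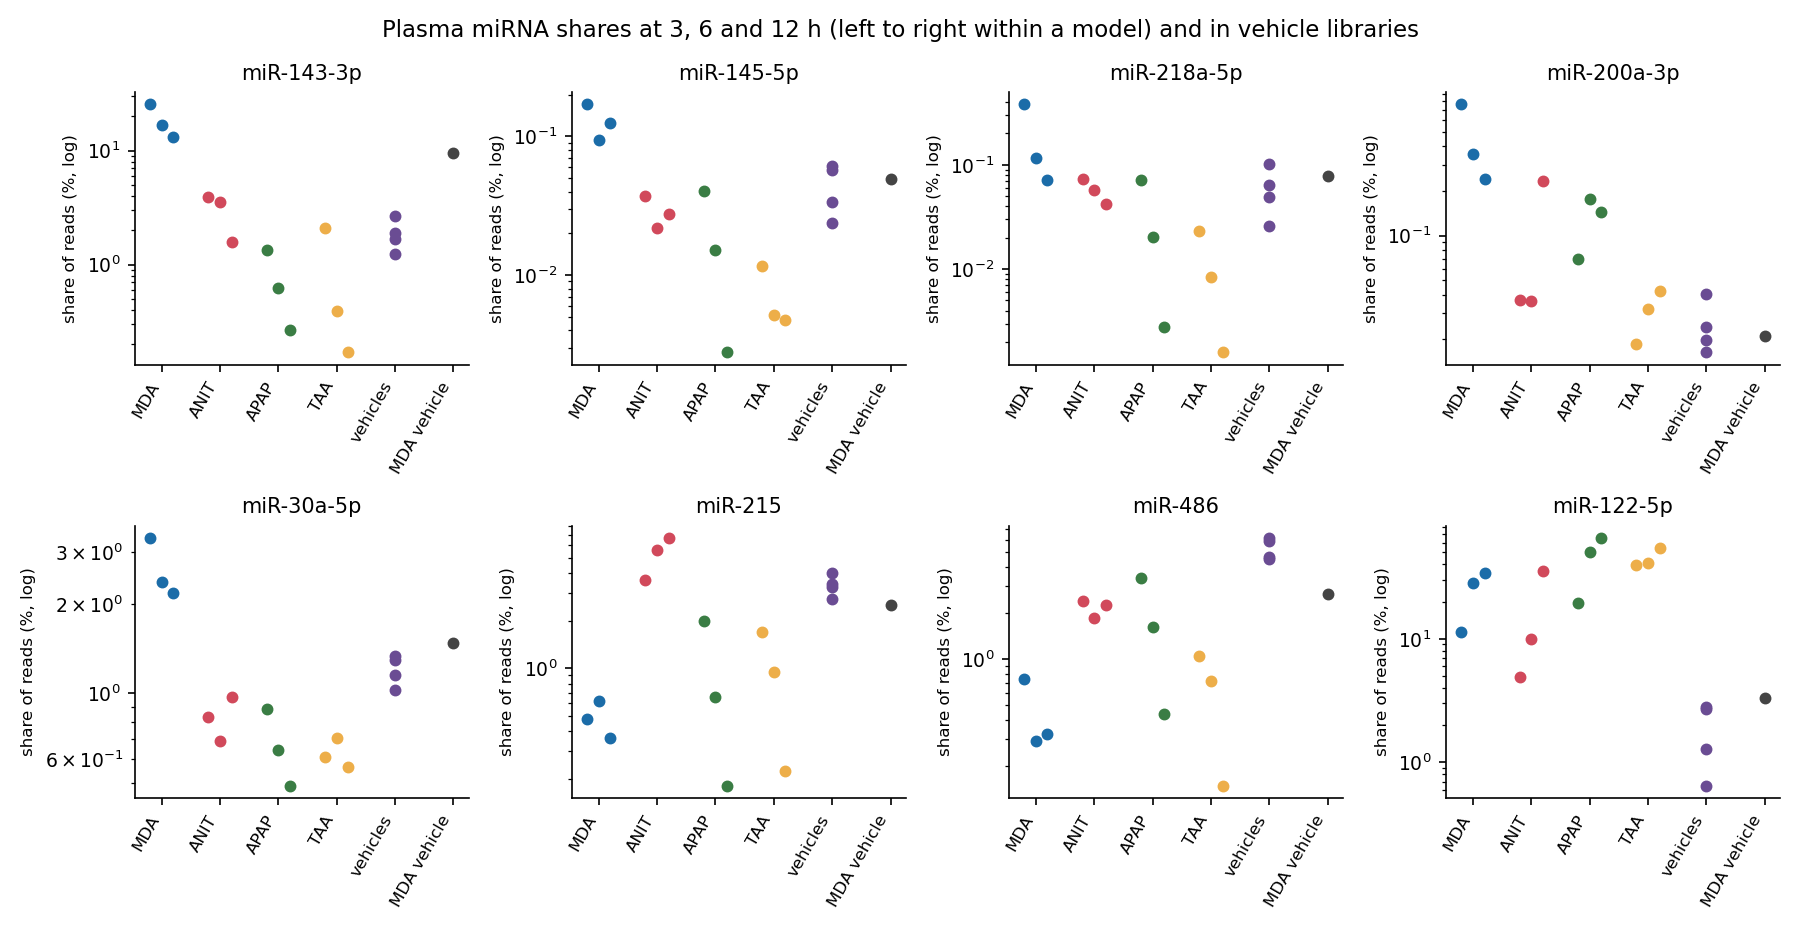
Share of reads (%, log scale) of 8 miRNAs in each library: MDA, ANIT, APAP and TAA at 3, 6 and 12 h (left to right), the 4 other vehicles and the MDA vehicle. miR-143-3p, miR-145-5p and miR-30a-5p lie above all libraries of the other models in the 3 MDA libraries. For miR-143-3p (9.58%) and miR-145-5p (0.0494%) the MDA vehicle lies above the other models too. For miR-30a-5p all 5 vehicles do (1.03% to 1.48%, against at most 0.974% in the other models).

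Against ANIT alone, the other bile duct toxicant, 19 of 123 miRNAs were higher in MDA (15.4%) and 27 lower (22%), and with total counts 7 (5.69%) and 20 (16.3%). miR-143-3p (3.07, SE 0.48), miR-145-5p (2.61, SE 0.41), miR-30a-5p (2.07, SE 0.36), miR-378a-3p (1.90, SE 0.37), miR-218a-5p (1.79, SE 0.36) and miR-200a-3p (3.24, SE 0.70) were among those higher, miR-218a-5p not with total counts (adjusted p = 0.166). Without time in the model miR-200a-3p and miR-378a-3p (adjusted p = 0.0546 each) and miR-218a-5p (0.0521) did not pass. miR-215 was lower in MDA, at −3.05 (SE 0.45, adjusted p = 0.00052). It held 3.60%, 5.57% and 6.68% of reads in ANIT at 3, 6 and 12 h and 0.478%, 0.621% and 0.361% in MDA. miR-101b-3p was higher in MDA by 2.79 (SE 0.67, adjusted p = 0.00658), at 0.252% to 0.382% of reads against 0.0521% to 0.0578%, though not without time in the model (adjusted p = 0.0521).

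These differences in level include any difference between the models' vehicles. When each model was taken relative to its own vehicle library, no miRNA passed the adjustment in either comparison, with 11 at an unadjusted p under 0.05 in each. miR-143-3p then differed from the 3 models by 2.01 (SE 0.92, adjusted p = 0.544), and miR-145-5p by 3.2 (SE 0.83, unadjusted p = 0.00173, adjusted p = 0.159). For miR-143-3p, the level in the MDA vehicle and the response to MDA cannot be told apart further with 1 vehicle library.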

How the data were processed

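Small RNA from 200 µL of EDTA plasma was sequenced on a MiSeq, per the labels' protocols. The authors deposited raw read counts per mature miRNA for each model, and for MDA a normalized signal (counts divided by a size factor), with DESeq 1.28.0 listed in the submitters' processing notes. The sources used here name no aligner or miRNA release. The CCl4 and DEX vehicle columns differed in 36 miRNAs by at most 4 reads and were counted as 1 library. Members, lists and tests were chosen with earlier results of these data known. Ratios used TMM (edgeR 4.0.16, R 4.3.3) over the 6 MDA libraries on 95 miRNAs, with exact Clopper-Pearson 95% intervals (scipy 1.17.1), 3 reads in place of 0, and 0.5 read added for log2. The edgeR quasi-likelihood fits needed 10 reads in 3 libraries; SE is the log2 change divided by the root of F. They were tested on simulated data. Named miRNAs were the list members with 20 reads, the 10 strongest calls each way and the 10 most abundant at each time, the 15 smallest p-values each way, and those called against all 5 vehicles. List members under 20 reads are given by reads, or by their change in the edgeR fits, and without a ratio to vehicle. Alternatives included DESeq2 1.42.0, total counts, other read minima, other vehicles and leaving out each library.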

Additional observations from a re-analysis of the deposited data

Results flagged for a closer look

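Over the 5 vehicle libraries, 45 measured miRNAs were examined for a library far from the other 4, and 3 were found, where chance alone flags about 1 in 20. miR-143-3p held 9.58% of reads in the MDA vehicle library, against 1.25% to 2.65% in the others. miR-184 held 0.0141% in the MDA vehicle, which is 2 reads, against at most 0.00266% in the others. miR-429 held 0.0151% in the TAA vehicle, where the MDA vehicle had 0 reads.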

How the results depend on the processing

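No paired analysis was possible because each MDA group has 1 sample and the replicate numbers only name samples. For the same reason no library could be left out of the ratios to vehicle. Of the counts of calls at 3, 6 and 12 h, higher calls moved by over 1.5 times to 25 (3 h) and 28 (12 h) with DESeq2 size factors, to 8 (6 h) and 11 (12 h) with total counts, and to 9 (3 h) and 10 (6 h) at 3-fold. Lower calls moved to 12 (3 h) and 12 (6 h) with DESeq2 size factors, to 13 (3 h) with the authors' signal, to 12 (6 h) with TMM on all listed miRNAs (chosen after seeing the data), to 31 (12 h) with total counts, to 12 (6 h) at 3-fold, to 12, 10 and 10 against all 5 vehicles, and to 32, 35 and 35 with no read minimum. Against the 5 vehicles, the 32 higher became 18 with total counts and 16 without the MDA vehicle and with total counts (chosen after seeing the data), the 37 lower became 24 with CMC vehicles only, and both became 0 against the MDA vehicle alone. Leaving out a library gave 23 to 36 higher and 22 (without 12 h) to 38 lower. Against APAP, TAA and ANIT, the 17 lower became 4 with total counts, 29 with DESeq2 and 30 with no read minimum. Leaving out an MDA library gave 13 to 26 higher and 7 (without 3 h) to 25 lower. Against ANIT, the 19 higher became 7 with total counts and 6 without the time factor, and the 27 lower became 9 without it. Leaving out an MDA library gave 9 to 22 higher and 10 to 27 lower. Relative to own vehicles all 4 counts were 0. Among named miRNAs, miR-192-5p at 3 h turned to a log2 ratio of −0.0621 against the TAA and −0.0924 against the CCl4/DEX vehicle, let-7f-5p turned to 0.72, 0.34 and 0.36 and miR-26a-5p to 0.69 (6 h) and 0.52 (12 h) against the TAA vehicle, and relative to own vehicles miR-184 turned to −0.49 (against the 3 models) and miR-375-3p to 0.21 (against ANIT). The cause of these changes was not tested. The 14176 reads of the MDA vehicle limit every ratio of a scarce miRNA.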
